A study of Canis lupus familiaris with 22 samples.

Results

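The genes of MHC class II antigen presentation were examined in the blood transcriptome of dogs with canine atopic dermatitis (cAD). Members were the transcript probes whose gene name on the array was that of a class II chain (*DLA-DRA*, *DLA-DRB1*, *DLA-DQA1*, *DLA-DQB1*), of the peptide exchange factor DM (*DLA-DMA*, *DLA-DMB*), of the invariant chain (*CD74*) or of the class II transactivator (*CIITA*). The array held 20 such probes of 8 genes, out of 43603 probes with 34382 different names. The 3 probes of *DLA-DRB1* were listed under its human name. All 20 passed the filter on dim signals, and 19 of them were well above background in both dye channels on all 22 arrays. The exception was *CIITA* probe 3, which was well above background in Cy5 on 21 arrays. No member probe was saturated.

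RNA came from venous blood (whole blood in the labels, nuclear cells of peripheral blood in the title of the deposited series) of 8 healthy dogs (ctrl), of 7 cAD patients before therapy (0) and of the same 7 patients after 6 months of allergen-specific immunotherapy (ASIT). The patients were privately owned, and the controls were donors of a veterinary blood bank. Both groups held several breeds, and breed, sex and age range differed in part between patients and controls. Each sample was labelled with Cy5 and hybridised to its own array beside a Cy3-labelled pool of RNA from other healthy dogs, the common reference shared by all arrays. A level below is the log2 ratio of a dog to that reference, so that 0 means equal signal and 1 means a doubling, and a difference is that of 2 group means on this scale.

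Class II molecules sit on B cells, monocytes and dendritic cells, and in the dog also on most T cells, and show peptides from engulfed proteins, allergens included, to helper T cells. An alpha and a beta chain form the peptide groove, the invariant chain CD74 holds the groove closed until it is degraded, and DM then helps to exchange the remaining fragment for a peptide. The chain genes are switched on together by CIITA, which acts through the RFX and NFY factors bound to their promoters. The first domain of the beta chains is among the most polymorphic protein segments known, and dogs of different breeds carry different DLA alleles. A probe made from 1 allele can bind another allele less well, so a low signal of such a probe can come from less RNA or from a different sequence, and these cannot be told apart here. Likewise, in bulk blood, fewer class II positive cells and less RNA per cell cannot be told apart.

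The probes are 60 bases long, and 7 of them are printed to show what the probes compared below read. Whether the place of a probe in its chain bears on its values was not tested. Positions are those the array files give for canFam3.1, the strand is that of the gene, and the sequences are those of the array design. The first pair is a near duplicate: *DLA-DQB1* probes 5 and 1 share the 53 bases in capitals, yet the files place probe 5 at chr12:2307852-2307911 and probe 1 at chr12:2157229-2157288. The latter position is 32 bases from the near end of *DLA-DRB1* probe 3 and 148641 bases from the nearest other *DLA-DQB1* probe, so the position of probe 1 is uncertain.
DLA-DQB1 probe 5: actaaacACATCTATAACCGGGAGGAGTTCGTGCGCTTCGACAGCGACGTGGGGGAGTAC
DLA-DQB1 probe 1: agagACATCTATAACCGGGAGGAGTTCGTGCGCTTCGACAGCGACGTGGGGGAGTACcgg

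Probe 4 of *DLA-DQB1* (chr12:2307760-2307819) reads as part of the same polymorphic first domain, further along the chain, whereas probe 3 (chr12:2307461-2307520) reads as part of the conserved second domain. Both are shown because they separated from each other in single dogs.
DLA-DQB1 probe 4: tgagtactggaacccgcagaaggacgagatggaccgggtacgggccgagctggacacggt
DLA-DQB1 probe 3: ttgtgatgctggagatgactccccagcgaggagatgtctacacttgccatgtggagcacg

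The same contrast exists in *DLA-DRB1*. Probe 3 spans chr12:2157321-2164447, a stretch of 7127 bases that is longer than the probe, and ends in the start of the first domain. Probe 2 spans chr12:2152253-2152777 and reads as the membrane-spanning and inner part of the chain.
DLA-DRB1 probe 3: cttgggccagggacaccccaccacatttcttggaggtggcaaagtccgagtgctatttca
DLA-DRB1 probe 2: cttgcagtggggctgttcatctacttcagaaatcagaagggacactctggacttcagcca

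*DLA-DRA*, the alpha chain that varies little between alleles, is represented by its probe 2 (chr12:2136615-2136674, forward strand).
DLA-DRA probe 2: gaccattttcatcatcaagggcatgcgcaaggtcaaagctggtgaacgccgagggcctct

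Arrays differed between the groups before any gene was considered. The share of probes well above background in Cy5 was 83.7 to 92.2% on the ctrl arrays and 53.3 to 87.5% on the cAD arrays. All ctrl arrays lay on 2 slides of their own and were scanned together, so slide, scan and disease cannot be told apart in either comparison with ctrl. Dogs 1 to 3 had both of their samples on the same slide, and dogs 4 to 7 did not. In dogs 4 to 7 the samples after therapy lay on a slide of their own, scanned apart from those before therapy. Time, slide and scan thus cannot be told apart in these dogs.

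No member probe differed between groups after adjustment over all 38287 tested probes. In 0 vs. ctrl 0 of 20 member probes were called by limma with Benjamini-Hochberg adjustment, where 0.0418% of all tested probes were called. The other pair of comparisons gave no call on the whole array (0% in each), nor by the F-test over the 3 groups. Without adjustment, p was under 0.05 for 0 of the 20 member probes in 0 vs. ctrl (11.7% of all tested probes), for 2 in 6 months vs. ctrl (7.2%) and for 0 in 0 vs. 6 months (5.96%). The 2 were *DLA-DQA1* probe 1 and *DLA-DQB1* probe 3, both lower after therapy. Groups of a member probe overlapped in each comparison, as did those of nearly all tested probes (0.219%, 0.11% and 0.0183% did not).

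The direction was nevertheless uneven. In 0 vs. ctrl 15 of 20 member probes were lower in the patients, with a median difference of -0.09 (all tested probes -0.02), and 52.4% of all tested probes were lower. Without dog 2 the count was 8 of 20. In 6 months vs. ctrl 19 of 20 were lower, with a median of -0.27 (all tested probes -0.04), against 56.4% of all tested probes. In 0 vs. 6 months all 20 were higher before therapy, with a median of 0.17 (all tested probes -0.01), where 51.4% of all tested probes were lower before therapy. In dogs 1 to 3, whose samples shared a slide, 10 of 20 were higher before therapy. The 3 comparisons share samples, and most of the probes followed each other across arrays (r above 0 in 167 of 171 pairs of the 19 probes measured on all arrays, median 0.55, from -0.18 to 0.99), so these counts are not independent of each other.

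**Figure D1:**
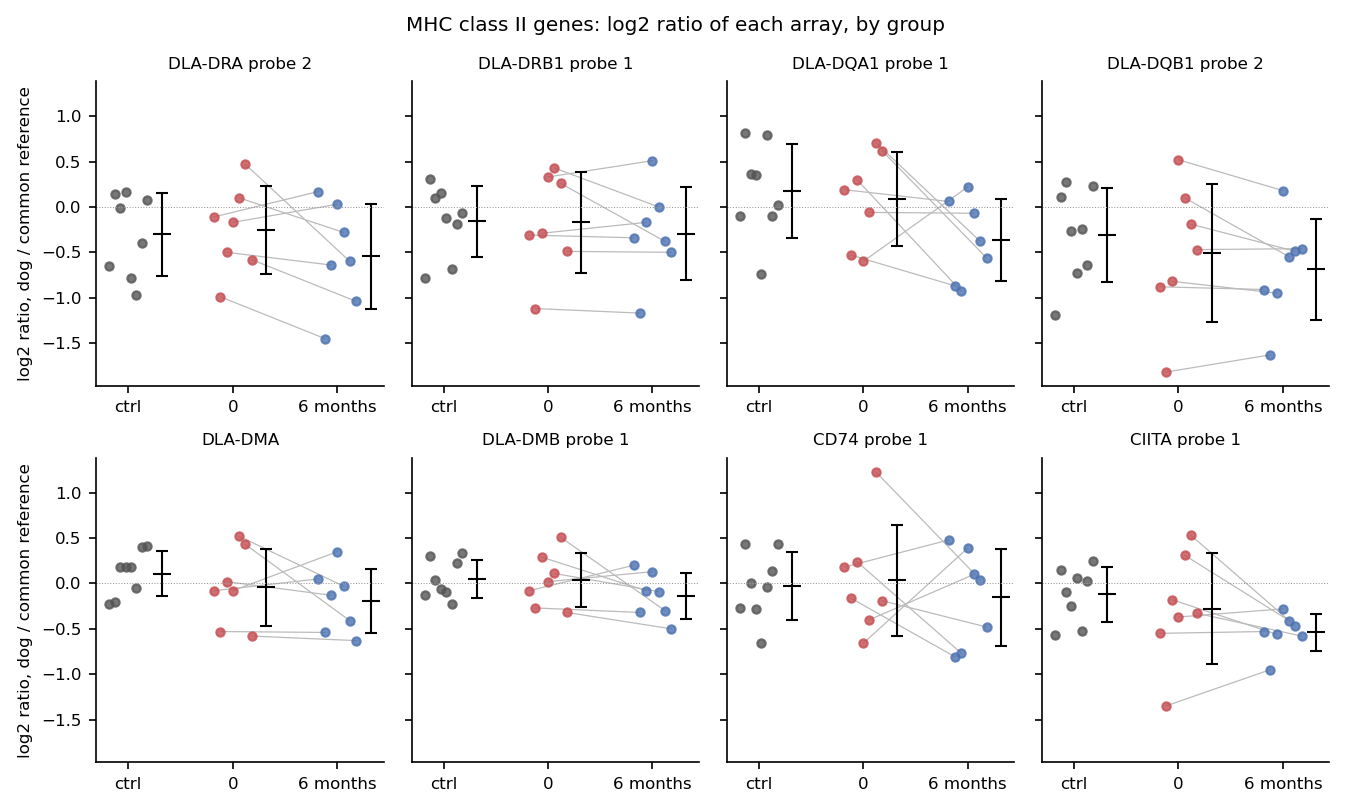
The log2 ratio of dog to common reference (vertical axis) on each of the 22 arrays, for the brightest probe of each of the 8 genes, by group (ctrl, n = 8; 0 and 6 months, n = 7 each). Points are arrays, grey lines join the 2 samples of a dog, and bars give the mean ± SD. The groups overlap in every panel, and the lowest *DLA-DQB1* value before therapy is -1.82.

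Among the alpha chains, *DLA-DRA* did not pass the test in any comparison. Probe 2 had a lowest, median and highest log2 ratio of -0.97, -0.21 and 0.17 in ctrl, of -0.99, -0.17 and 0.47 before therapy and of -1.45, -0.60 and 0.17 after 6 months. The 3 ranges overlapped almost fully, and the lowest value at both times was that of dog 2. Against ctrl the difference was 0.05 ± 0.25 (SE) before therapy and -0.24 ± 0.25 after 6 months. Between the times it was 0.29 ± 0.26, and 5 of 7 patients were higher before therapy (exact sign-flip permutation p = 0.156). Leaving out each array in turn gave -0.36 to -0.09 in 6 months vs. ctrl and 0.14 to 0.41 in 0 vs. 6 months.

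*DLA-DQA1*, the alpha chain of DQ, had a pair of probes that described different dogs. Probe 1, the brighter one, ran from -0.74 over a median of 0.18 to 0.81 in ctrl, from -0.60 over 0.19 to 0.71 before therapy and from -0.93 over -0.38 to 0.22 after 6 months. Its difference in 6 months vs. ctrl was -0.53 (95% confidence interval -1.05 to -0.02, limma adjusted p = 0.681, exact permutation p = 0.0549), and 6 of 7 dogs were higher before therapy than after (difference 0.45 ± 0.26, adjusted p = 0.906).

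Probe 2 of *DLA-DQA1* ran from -0.30 over 0.23 to 0.44 in ctrl, from -2.01 over 0.12 to 0.96 before therapy and from -2.49 over -0.13 to 0.24 after 6 months. The difference in 6 months vs. ctrl was -0.65 ± 0.38 (adjusted p = 0.687, exact permutation p = 0.0303). Without the array of dog 3 after therapy it was -0.31 (exact permutation p = 0.0799), and with normexp and loess -0.33. Both lowest values belonged to dog 3, while the other 6 patients were at -0.72 or above before therapy and at -0.78 or above after.

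The beta chain *DLA-DQB1* was lower in patients by each of its 5 probes, with differences of -0.16 to -0.56 in 0 vs. ctrl and of -0.26 to -0.68 in 6 months vs. ctrl, none of which passed the adjusted test. Without the first array of dog 2 those of probes 1, 2, 3 and 5 in 0 vs. ctrl were -0.02, 0.01, -0.12 and -0.03. Without its array after therapy those in 6 months vs. ctrl were -0.17, -0.23, -0.32 and -0.22. Probe 3, in the conserved domain, differed by -0.41 after 6 months (95% confidence interval -0.81 to -0.02, adjusted p = 0.681, exact permutation p = 0.0238). Its lowest, median and highest log2 ratios were -0.50, -0.15 and 0.41 in ctrl, -1.18, -0.36 and 0.18 before therapy and -1.03, -0.41 and -0.06 after 6 months. No dog exceeded the reference after 6 months by this probe, and 3 of the 8 ctrl dogs did.

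Probe 4 of *DLA-DQB1* ran from -0.46 over 0.01 to 0.61 in ctrl, from -1.99 over -0.25 to 0.22 before therapy and from -2.58 over -0.23 to 0.32 after 6 months. The difference was -0.56 ± 0.36 in 0 vs. ctrl (exact permutation p = 0.0864) and -0.68 ± 0.36 in 6 months vs. ctrl (exact permutation p = 0.0441). Without dog 3 at the time in question the differences were -0.30 and -0.35 (exact permutation p = 0.197 and 0.114). Dogs 2 and 3 held the lowest values at both times, and the other 5 patients lay within the ctrl range.

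*DLA-DRB1*, the beta chain of DR, showed no common direction. Probe 1 differed by -0.01 ± 0.24 in 0 vs. ctrl and by -0.13 ± 0.24 in 6 months vs. ctrl, and probe 2 by -0.26 ± 0.25 and -0.43 ± 0.25. Without dog 2 at the time in question probe 1 gave 0.15 and 0.01, and probe 2 gave -0.09 and -0.29. Probe 3 was the single member probe that was not lower after 6 months than in ctrl (0.02 ± 0.30). In ctrl, probe 3 had by far the wider range, from -1.32 to 0.76, against -0.56 to 0.38 for probe 2.

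**Figure D2:**
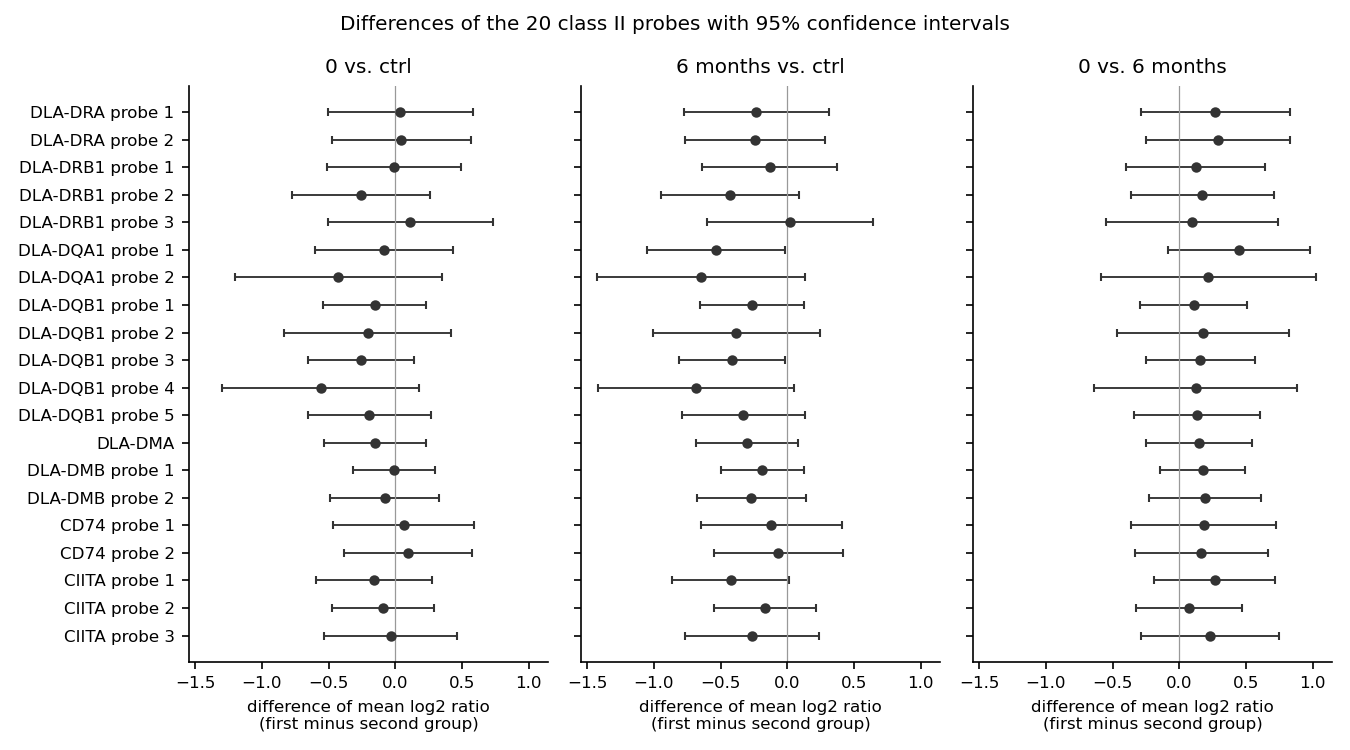
Difference of the mean log2 ratio (horizontal axis, first minus second group) for the 20 member probes in the 3 comparisons, with 95% confidence intervals from the limma fit. All intervals cross 0 except those of *DLA-DQA1* probe 1 and *DLA-DQB1* probe 3 in 6 months vs. ctrl, neither of which passed after adjustment (adjusted p = 0.681 for each).

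Differences were small among the genes of peptide loading. *DLA-DMA* differed from ctrl by -0.15 ± 0.18 before therapy and by -0.30 ± 0.18 after 6 months (exact permutation p = 0.078). For the pair of *DLA-DMB* probes the latter difference was -0.19 ± 0.15 and -0.27 ± 0.20. In the dogs' own dye these 3 differences after 6 months were -0.02, -0.08 and 0.01, and in the reference dye 0.32, 0.13 and 0.29. *CD74* probe 1 ran from -0.66 to 0.43 in ctrl, from -0.66 to 1.23 before therapy and from -0.81 to 0.48 after 6 months. Its differences were 0.06 ± 0.26 in 0 vs. ctrl and -0.12 ± 0.26 in 6 months vs. ctrl, and 4 of 7 dogs were higher before therapy. The highest *CD74* value before therapy was that of dog 6.

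*CIITA* probe 1 had the smallest exact p of the 60 member tests. Its lowest, median and highest log2 ratios were -0.57, -0.03 and 0.25 in ctrl, -1.35, -0.33 and 0.53 before therapy and -0.95, -0.53 and -0.28 after 6 months. All 7 samples taken after therapy were below the reference, but they overlapped with the ctrl samples. The difference in 6 months vs. ctrl was -0.42 (95% confidence interval -0.86 to 0.01, limma adjusted p = 0.681, exact permutation p = 0.00995), and -0.25 in the dogs' own dye alone. The other probes of the gene gave -0.17 ± 0.19 and -0.26 ± 0.24. For probe 3 the latter rested on dog 7, at -1.16 after therapy on the array where the probe was not well above background, without which it was -0.10. With normexp and loess it was 0.00. By exact test, p was under 0.05 for 4 of the 20 member probes in 6 months vs. ctrl (10.5% of all tested probes), for 0 in 0 vs. ctrl (12.5%) and for 0 in 0 vs. 6 months (3.39%).

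The ratio depends on both dyes, and the reference channel was not level between the groups. The same reference RNA was on every array, yet its quantile-normalised Cy3 signal was higher on the arrays of patients before therapy than on the ctrl arrays for 17 of 20 member probes, with a median difference of 0.25. By limma on Cy3 alone 13 of 20 member probes were called in 0 vs. ctrl and 9 of 20 in 6 months vs. ctrl, where 46% and 44.4% of all tested probes were called. For *CD74* probe 1 the Cy3 difference in 0 vs. ctrl was 0.71 (exact permutation p = 0.000466), beside 0.72 in Cy5 (exact permutation p = 0.0162). For *DLA-DMA* the Cy3 signals of the groups did not overlap (0.41, exact permutation p = 0.000155, the smallest that 8 against 7 allows), and the Cy5 difference was 0.25. In 6 months vs. ctrl the 2 dyes also divided the probes singled out above. *DLA-DQA1* probe 1 differed by -0.24 in Cy5 (exact permutation p = 0.439) and by 0.30 in Cy3 (exact permutation p = 0.00373). *CIITA* probe 1 differed by -0.25 in Cy5 (exact permutation p = 0.191) and by 0.23 in Cy3, where the groups did not overlap (exact permutation p = 0.000155). For *DLA-DQB1* probe 3 the difference lay in Cy5, with -0.57 (exact permutation p = 0.0159) against -0.07 in Cy3, as it did for *DLA-DQA1* probe 2 (-0.76 and -0.15) and *DLA-DQB1* probe 4 (-0.73 and 0.04). In Cy5 alone 0 of 20 member probes were called in either comparison with ctrl, where 21.1% and 15.5% of all tested probes were called, and 14 of 20 were higher in 0 vs. ctrl against 5 of 20 by the ratio. In Cy5 and in the ratio the part of the arrays cannot be told apart from that of the disease.

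**Figure D3:**
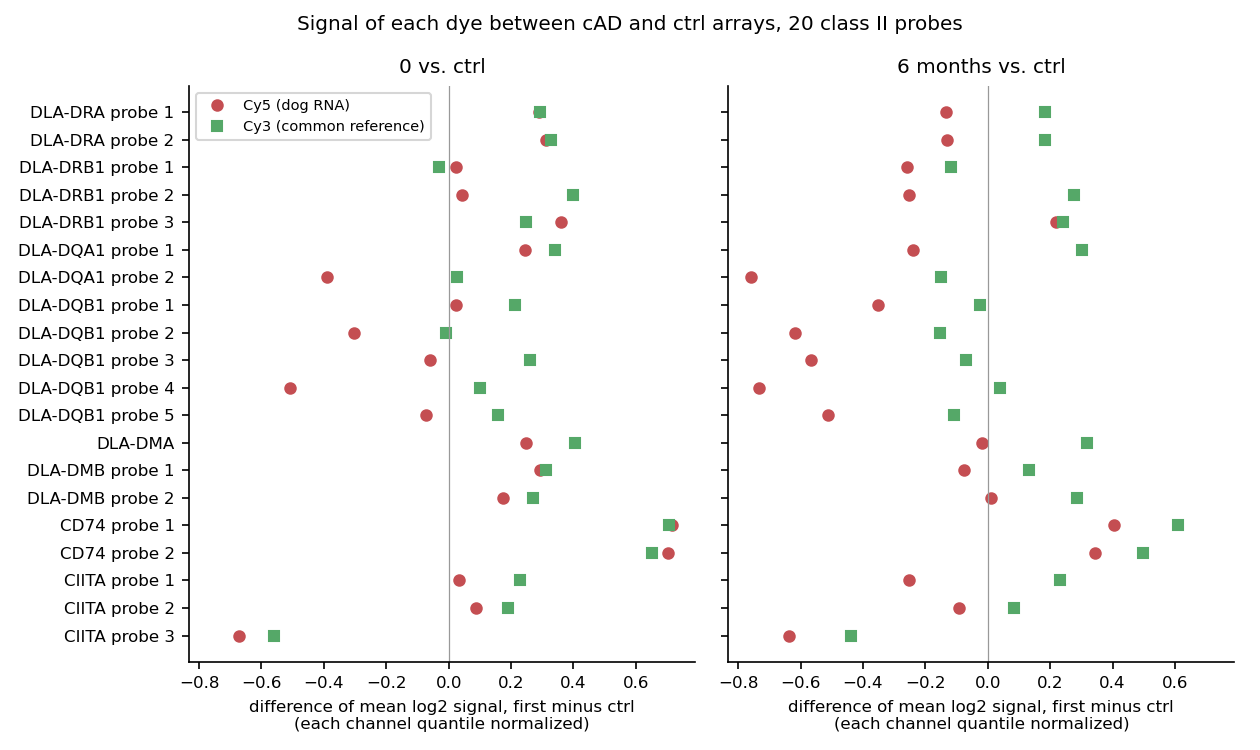
Difference of the mean log2 signal (horizontal axis, patients minus ctrl) in each dye, for the 20 member probes at 0 and at 6 months, each dye quantile-normalised. Squares (Cy3, the same reference RNA on all arrays) are right of 0 for 17 of 20 probes in 0 vs. ctrl, and both *CD74* probes are right of 0 in both dyes.

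Values of several DQ and DR beta chain probes differed more between dogs than between the samples of a dog. This was described by the between-dog share, the intraclass correlation of the log2 ratio over the 7 patients at 0 and 6 months. It is 1 where each dog had the same value at both times and near or below 0 where the arrays of a dog were no more alike than those of different dogs. Over all tested probes the median was 0.30 and the upper quartile 0.53. Of the 20 member probes 7 reached 0.70 or more, 5 of them the *DLA-DQB1* probes and the others *DLA-DRB1* probe 1 and *DLA-DQA1* probe 2. Since dogs 1 to 3 had both samples on the same slide, dog and slide are mixed in this measure. Over all tested probes the array after therapy that most resembled a dog's first array was its own in 4 of 7 dogs, and not in dogs 3, 5 and 6. In dogs 4 to 7 alone, whose samples lay on different slides, the median over all tested probes was 0.07. Among the *DLA-DQB1* and *DLA-DRB1* probes *DLA-DRB1* probe 1 then had the highest share (0.60) and *DLA-DQB1* probe 3 the lowest (0.02).

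*DLA-DQB1* probe 4 reached 0.94 (0.86 to 0.95 when a dog was left out), a share matched or exceeded by 0.248% of all tested probes. Probe 2 of the gene reached 0.89 and *DLA-DRB1* probe 1 reached 0.84, which 0.96% and 2.36% of all tested probes matched or exceeded. On ratios remade with normexp and loess these shares were 0.92, 0.57 and 0.05, and without dog 6, whose sample after therapy moved most between the scalings, the last pair was 0.79 and 0.72. In dogs 4 to 7 alone the 3 shares were 0.38, 0.53 and 0.60. The other *DLA-DRB1* probes were nearer to the rest of the array, with 0.60 for probe 2 and 0.57 for probe 3 (matched or exceeded by 18.9% and 21.8% of all tested probes). *CD74* was at the other end, with 0.00 and -0.03 for its probes, and so was *DLA-DQA1* probe 1 with -0.32. *DLA-DRA* (0.52 and 0.55) was close to *DLA-DRB1* probes 2 and 3, and *DLA-DMA* (0.42), *DLA-DMB* (0.14 and 0.32) and *CIITA* (0.17 to 0.38) lay below it. For *DLA-DQA1* probe 2 the share of 0.71 rested on dog 3, without which it was -0.14.

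**Figure D4:**
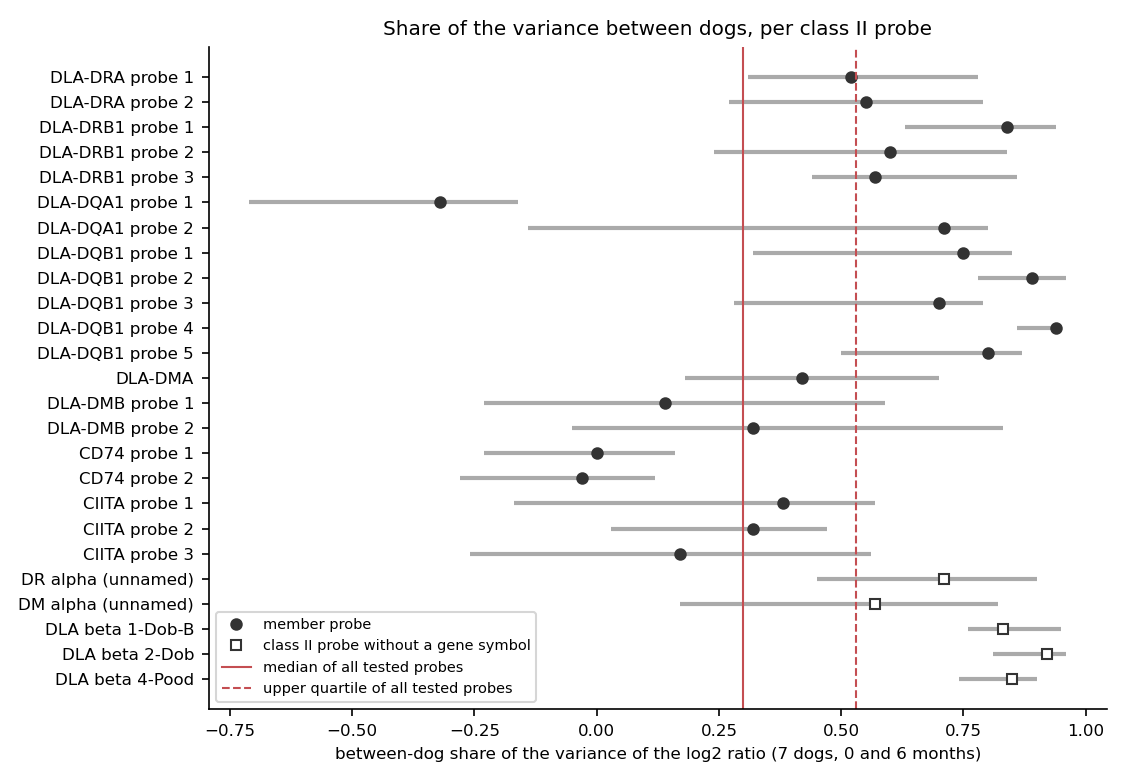
Between-dog share of the variance of the log2 ratio (horizontal axis) over 7 patients sampled at 0 and 6 months, for the 20 member probes (filled) and 5 class II probes that carry no gene symbol (open). Grey bars give the range when each dog was left out in turn, and the red lines mark the median (0.30) and the upper quartile (0.53) of all tested probes.

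Within 1 array, probes of the same gene parted company in particular dogs. In dog 3 *DLA-DQB1* probe 4 was at -1.99 before therapy and -2.58 after, while probe 3 of that gene was at -0.40 and -0.79 on the same arrays. The level of probe 4 minus that of probe 3 was thus -1.58 and -1.79 in dog 3. In the other 14 dogs this difference lay between -0.55 and 0.65. It was 0.65 and 0.63 in dog 1, 0.17 and 0.16 in dog 2, -0.30 and -0.35 in dog 4 and 0.25 and 0.32 in dog 5. It was less stable in dog 6 (-0.43 and 0.24) and dog 7 (0.47 and 0.24). The median change between the times was 0.07, and the between-dog share of 0.94 fell to 0.69 without dog 3 and was 0.53 in dogs 4 to 7 alone. Dog 3 was low by *DLA-DQA1* probe 2 as well, at -2.01 and -2.49 (-1.10 and -1.38 on ratios remade with normexp and loess), and over the 22 arrays that probe followed *DLA-DQB1* probe 4 with r = 0.87, as a description. Over the 20 arrays without dog 3 the r was 0.52.

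Dog 2 was low by most class II probes. It had the lowest value of the 7 patients by 10 of 20 member probes before therapy and by 11 after, and its log2 ratios before and after therapy were -1.82 and -1.63 by *DLA-DQB1* probe 2, -1.18 and -1.03 by *DLA-DQB1* probe 3, -1.12 and -1.17 by *DLA-DRB1* probe 1 and -0.99 and -1.45 by *DLA-DRA* probe 2. The mean over the 8 genes was -0.85 and -0.97 in dog 2, and between -0.59 and 0.49 on the other 20 arrays. Among the probes nearer to 0 were *DLA-DRB1* probe 3 (-0.24 and -0.05), *CIITA* probe 3 (0.19 and 0.44) and, before therapy, *CD74* probe 2 (-0.02). Other gene groups were low in this dog as well. Before therapy its array had the lowest mean of all 22 for class I presentation (-0.598), costimulation (-1.08), B cell markers (-1.10) and T cell markers (-0.538), and the highest for neutrophil markers (1.05). After therapy these means were -0.521, -0.561, -0.648, -0.422 and 0.757. The part of cell composition in the class II values of dog 2 was not tested.

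In *DLA-DRB1* the difference of probe 3 and probe 2 had the highest between-dog share of the 11 probe pairs examined, 0.97, with a median change of 0.08 between the times. In dogs 4 to 7 alone, with samples on different slides, the share was 0.98. With normexp and loess it was 0.49, and 0.83 without dog 6. The difference was 0.98 and 1.21 in dog 2, 0.96 and 1.05 in dog 1, and -0.39 and -0.42 in dog 4. The ctrl dogs spanned a like range, from -0.83 in ctrl 8 to 1.04 in ctrl 1. The difference between both *CD74* probes stayed between -0.11 and 0.25 on all arrays, and that between both *DLA-DRA* probes between -0.37 and 0.06. A wide range was not limited to the chain genes: *CIITA* probe 2 minus probe 1 ran from -0.22 to 0.73 (between-dog share 0.39), which was as wide as *DLA-DQB1* probe 5 minus probe 3, from -0.42 to 0.52 (share 0.84).

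**Figure D5:**
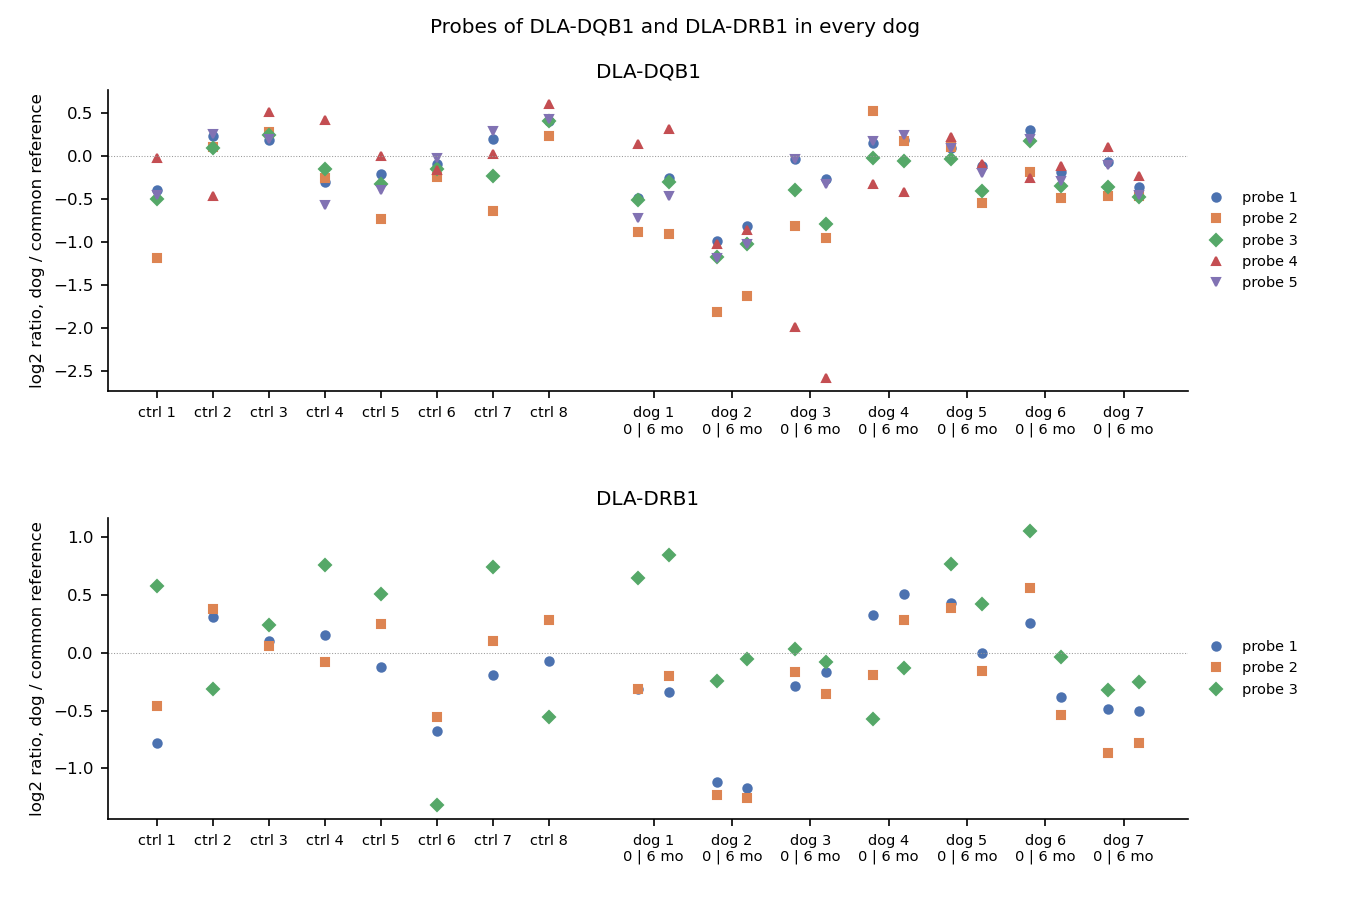
Log2 ratio (vertical axis) of the 5 *DLA-DQB1* probes (top) and the 3 *DLA-DRB1* probes (bottom) in each ctrl dog and in each patient, with the sample at 0 left of that at 6 months. Probe 4 of *DLA-DQB1* stands alone near -2 or lower in dog 3, and probe 3 of *DLA-DRB1* lies over 0.9 above probe 2 in dogs 1 and 2 at both times and below it in dog 4.

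A further 5 probes are described in the files as dog class II but carry no gene symbol. Of these, 3 were designed on beta chain variable regions from single dogs and had the widest ranges. The probe for the region called 1-Dob-B ran from -2.97 to 1.71 over all arrays, with 5 of 8 ctrl dogs at -1.97 or lower and the other 3 at 0.10 or higher. In the patients it was 1.71 and 1.51 in dog 3 and -2.37 and -1.97 in dog 1. It moved most in dog 6 (1.45 and -0.49) and dog 7 (-2.07 and -0.94). The between-dog share was 0.83, and 0.52 in dogs 4 to 7 alone. Its SD of 1.62 over the 22 arrays was matched or exceeded by 0.0968% of all tested probes. The 2-Dob probe was 2.49 and 1.97 in dog 2 and -2.78 and -3.45 in dog 5, in which it was not well above background. No group difference of these 5 probes passed the test by limma.

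Other genes of the pathway did not pass the test either: 0 genes were called in any list or comparison. Among proteins of the class II compartment 4 of 7 measured genes were lower in 0 vs. ctrl and 5 of 7 in 6 months vs. ctrl. The lysosomal protease legumain, *LGMN*, was -0.37 ± 0.21 and -0.29 ± 0.21, and *CTSB*, cathepsin B, 0.19 ± 0.18 and 0.18 ± 0.18. With normexp and loess *LGMN* was -0.30 and -0.18, and *CTSB* 0.19 and 0.02. Of the factors that switch on class II genes, 5 of 13 and 7 of 13 were lower. *RFX5*, a subunit of the RFX complex, had log2 ratios from -0.24 over 0.04 to 0.50 in ctrl, from -1.42 over -0.19 to 0.15 before therapy and from -0.65 over -0.44 to -0.30 after 6 months. The samples after therapy did not overlap with ctrl, which held for 0.11% of all tested probes, and the difference of -0.53 ± 0.18 had a limma adjusted p of 0.645 (exact permutation p = 0.000311). In 0 vs. ctrl it was -0.44 ± 0.18 (adjusted p = 0.306), and -0.27 without the first array of dog 2. With normexp and loess *RFX5* differed by -0.28 in 0 vs. ctrl and by -0.36 in 6 months vs. ctrl.

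Genes of class I presentation, which shows peptides from inside the cell, varied with the class II genes across arrays. Of its 16 measured genes 12 were lower in 0 vs. ctrl and 11 in 6 months vs. ctrl, with median differences of -0.11 and -0.17. *DLA-12*, a class I heavy chain, was -0.41 ± 0.20 and -0.58 ± 0.20, and the immunoproteasome subunit *PSMB8* -0.34 ± 0.18 and -0.56 ± 0.18, without passing the adjusted test (lowest adjusted p = 0.433 and 0.616). In the dogs' own dye these differences were -0.20 and -0.40 for *DLA-12* and 0.01 and -0.40 for *PSMB8*. In the reference dye they were 0.31 and 0.25 for *DLA-12* and 0.37 and 0.19 for *PSMB8*. The 2 largest differences upward in 0 vs. ctrl were those of *DLA-79*, another class I chain, with 0.35 ± 0.43 and 0.07 ± 0.43, and of *PSMB9*, a further immunoproteasome subunit, with 0.31 ± 0.20 and 0.06 ± 0.20. Leaving out each array in turn gave 0.07 to 0.61 for *DLA-79* and 0.23 to 0.45 for *PSMB9* in 0 vs. ctrl. Among 8 genes of costimulation, the second signal to T cells, 7 and 6 were lower. *CD274*, the inhibitory ligand PD-L1, ran from -0.44 to 0.60 in ctrl, from -1.62 to -0.12 before therapy and from -0.96 to -0.05 after 6 months. It differed by -0.84 ± 0.21 in 0 vs. ctrl (adjusted p = 0.124) and by -0.39 ± 0.21 in 6 months vs. ctrl. It was well above background on 5 of 7 arrays at each time in the patients, and with normexp and loess the differences were -0.11 and 0.01. Over the 22 arrays the mean of the class I list followed the class II mean with r = 0.88. The r was 0.80 for the class II compartment list, 0.70 for costimulation and 0.53 for the factors that switch on class II. The 5 single genes most like the class II mean were *GTF3C2* (r = 0.91), *DMTF1* (0.91), *CUL1* (0.90), *PDHA1* (0.88) and *WSB2* (0.88), given as a description over arrays that share the reference and, for patients, the dog.

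Markers of professional antigen-presenting cells were examined in the same way, and 0 of 9 B cell, 0 of 8 monocyte and 0 of 11 dendritic cell genes were called. The mean of the B cell markers was between -0.53 and 0.21 in ctrl, between -1.10 and 0.62 before therapy and between -0.94 and 0.11 after 6 months, and in 6 months vs. ctrl 7 of its 9 genes were lower with a median difference of -0.38. In 0 vs. ctrl 5 of 9 were lower (median -0.03), and in 0 vs. 6 months 1 of 9 was lower before therapy (median 0.29). The mean of the monocyte markers was between -0.37 and 0.30, between -0.93 and 0.37 and between -0.45 and 0.78. Of these 8 genes 8 were lower in 0 vs. ctrl (median -0.11), 5 in 6 months vs. ctrl (-0.01) and, before against after therapy, 7 (-0.17), the last opposite in direction to the class II probes. Of the 11 dendritic cell genes 8, 5 and 6 were lower in the 3 comparisons. The largest fall among them in 0 vs. ctrl was that of *TCF4*, a transcription factor of plasmacytoid dendritic cells and B cells (-0.45 ± 0.15, adjusted p = 0.219; -0.11 with normexp and loess). Of the 6 T cell genes 1 was lower in 0 vs. ctrl (median 0.16), 5 in 6 months vs. ctrl (-0.22) and, before against after therapy, 1 (0.29), as with the class II probes. *CD2*, an adhesion receptor of T cells picked after its values were seen, was higher before therapy in 7 of 7 dogs (0.48 ± 0.20, adjusted p = 0.686; 0.36 with normexp and loess). *CD28*, the 1 T cell gene that was lower before therapy, differed by -0.41 (-0.11 with normexp and loess). The means of the B cell and monocyte markers followed the class II mean with r = 0.52 and 0.56. That of the T cell markers followed it with 0.17 and that of the neutrophil markers with -0.20. The part of cell composition in the class II levels was not tested.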

How the data were processed

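Blood RNA of 22 samples was hybridised to two-colour canine 44K arrays. The authors extracted the spots with Agilent Feature Extraction (10.7.3.1 per the labels, 10.10.1.1 per the file headers) with background subtraction and dye normalisation, and deposited log10 ratios of Cy5 (dog) over Cy3 (reference) with the processed signal intensity of each dye. A series table of log10 ratios equalled these on the 14 cAD arrays but not on the ctrl arrays (r = 0.711 to 0.844) and was used as an alternative. No column of the authors' own comparisons was used.

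Deposited log10 ratios were converted to log2, 208 outlier spots were left out and replicate spots averaged. Probes well above background in Cy5 on at least 7 arrays were tested (38287 of 43603) with limma 3.58.1 in R 4.3.3, in 1 fit of 3 groups without a block, with Benjamini-Hochberg adjustment and a threshold of 0.05. Single members also had 2-sided exact permutation tests. The fit was tested on simulated data. Samples with the same patient number come from the same dog by the source and health condition in the labels, although the titles give all samples after therapy as patient 1. The 2 arrays of a dog deviated together with r = -0.04 to 0.56. Each array held 1 blood sample, and the number of arrays limits the precision.

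All member probes were reported. The brightest stood for a gene. From the lists, where no gene was called, at most the 2 largest rises and 2 largest falls in 0 vs. ctrl were named, and not from every list. *CD2* was named outside this rule, after its values were seen. The members and lists were chosen with earlier results of these data known. The 11 probe pairs and the 5 unnamed probes were chosen after their values were seen. Gene annotation of canFam3.1 was not used here, and domains were named from the probe sequences.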

Additional observations from a re-analysis of the deposited data

Results flagged for a closer look

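In 60 combinations of a member probe and a group, a sample stood apart from the rest of its group by the gap test of Dixon in 2, where chance flags about 1 in 20. Both were dog 3 after 6 months of ASIT: *DLA-DQA1* probe 2 at -2.49 (next lowest sample -0.78; -1.38 for dog 3 on ratios remade with normexp and loess) and *DLA-DQB1* probe 4 at -2.58 (next lowest -0.86). The same dog was lowest by both probes before therapy, at -2.01 and -1.99. What set these values apart was not tested.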

How the results depend on the processing

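No member probe was called under any alternative run, including those that left out each array in turn. The member counts by direction were 15 lower in 0 vs. ctrl, 19 lower in 6 months vs. ctrl and 20 higher before in 0 vs. 6 months. The first and the last moved by over 1.5 times in some settings. In 0 vs. ctrl 6 were lower with Cy5 alone and 8 without dog 2 (both arrays, or that before therapy alone). In dogs 1 to 3 alone, whose samples lay on the same slide, 10 were higher before therapy. With Cy5 alone 16 were lower in 6 months vs. ctrl and 19 higher before in 0 vs. 6 months. With slide as a fixed block 15 were higher before therapy. Leaving out each array gave 8 to 20 in 0 vs. ctrl, 17 to 20 in 6 months vs. ctrl and 16 to 20 in 0 vs. 6 months. The settings without both arrays of dog 2 or dog 6 were chosen after seeing the data.

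Calls over the whole array moved more. In 0 vs. ctrl the 16 calls became 0 with normexp and loess, 0 with both channels above background on all arrays, 0 by the one-way analysis with Tukey's comparison that the methods name, 0 with slide and 0 with scan day as a random block, 9 with the series table, 8085 with Cy5 alone and 129 without dog 2. With Cy5 alone 6 months vs. ctrl gave 5944 and the 3 groups 7253 calls. These Cy5 counts are over probes with a value on every array, and over all tested probes they were 8092 in 0 vs. ctrl and 5947 in 6 months vs. ctrl. The 3 groups gave 7 with the series table, 25 with no filter and 30 without dog 2, and no filter gave 1 in 0 vs. 6 months. Without dog 2 there was 1 call in 6 months vs. ctrl and there were 5 in 0 vs. 6 months. Leaving out each array gave 0 to 440 calls in 0 vs. ctrl, 0 to 2 in 6 months vs. ctrl, 0 to 103 in 0 vs. 6 months and 0 to 193 over the 3 groups, each highest without dog 1 before therapy. The cause was not tested.

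Pairing the samples, with the dog as a replicate block in the patients alone, gave 0 calls in 0 vs. 6 months, as without the block, and left all 20 member probes higher before therapy.

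Differences near 0 changed sign. In 0 vs. ctrl the brightest *DLA-DRB1* probe was 0.05 with normexp and loess and 0.02 with Cy5 alone, and probe 3 of that gene was 0.11. With Cy5 alone *CIITA* was 0.03, *DLA-DMA* 0.25, *DLA-DMB* 0.29 and *DLA-DQA1* 0.24. In 6 months vs. ctrl *CD74* was 0.41 with Cy5 alone and *DLA-DRB1* probe 3 0.02. In 0 vs. 6 months *CIITA* was -0.01 with slide as a fixed block, and in dogs 1 to 3 alone *DLA-DRB1*, *DLA-DQB1* and *CIITA* were each -0.01. Leaving out each array in 0 vs. ctrl gave -0.11 to 0.15 for *DLA-DRB1*, -0.38 to 0.01 for *DLA-DQB1*, -0.07 to 0.17 for *DLA-DRA*, -0.14 to 0.18 for *CD74*, -0.30 to 0.02 for *CIITA*, -0.09 to 0.05 for *DLA-DMB* and -0.21 to 0.03 for *DLA-DQA1*. *DLA-DRB1* ran from -0.27 to 0.01 in 6 months vs. ctrl and from -0.02 to 0.28 in 0 vs. 6 months, and *CD74* from -0.02 to 0.30 in the latter. *DLA-DQB1*, *DLA-DQA1*, *DLA-DRA*, *DLA-DMA*, *DLA-DMB* and *CIITA* were lower in 6 months vs. ctrl by their brightest probe under all alternatives run.

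Between-dog shares, whose alternatives were chosen after seeing the data, were 0.91 to 0.94 for *DLA-DQB1* probe 4 under the other scalings, 0.86 to 0.95 when a dog was left out and 0.38 in dogs 4 to 7 alone. With Cy5 alone they were 0.73 for *DLA-DQB1* probe 2, 0.51 for *DLA-DRB1* probe 1 and 0.89 for the difference of *DLA-DRB1* probes 3 and 2. On the array of dog 6 after therapy 5 of 20 member probes moved by over 0.5 between the deposited and the normexp ratios, by up to 1.33.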
